A study of Mus musculus with 24 samples.

Results

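The genes described here are 39 endoplasmic reticulum (ER) chaperones and unfolded protein response genes, named as a module and matched by gene name to the probes of mouse whole-genome arrays. All 39 of 39 were found, among 22968 genes tested, and each was well above background on all 24 arrays. They fell into 7 roles: 10 Hsp70 and Hsp90 chaperones with their cochaperones, 2 lectin chaperones, 6 disulfide isomerases and oxidases, 5 stress sensors and regulators, 9 factors of ER-associated degradation, 4 of translocation into the ER and 3 of the COPII coat.

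Islet RNA was taken from 24 male mice, 12 of strain C57BL6/J (BL6) and 12 of the closely related C57BLKs/J (BLKS). Diets began at an age of 8 weeks. Fat made up 18% of the calories of chow and 42% of those of the high-fat diet, and the drug diet was the latter carrying pioglitazone at 140 mg per kg. Each of the 6 groups of strain and diet held 4 mice, and all mice on pioglitazone were also on the high-fat diet, so the drug has no arm on chow. Pioglitazone activates the nuclear receptor PPAR-gamma. The labels of the samples give 12 weeks of diet and the design text of the series gives 16, and which holds is not known. The series compares how the strains respond to the high-fat diet. Islets were isolated after collagenase perfusion and hold several endocrine and non-endocrine cell types, so fewer cells of a type and less RNA per cell cannot be told apart in any value below.

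Secretory proteins such as insulin are folded in the ER. When unfolded protein builds up there, the sensors PERK (Eif2ak3), IRE1 (Ern1) and ATF6 (Atf6) leave the chaperone BiP (Hspa5), and they slow translation, splice Xbp1 mRNA and release a transcription factor, which together raise chaperones and degradation factors. Beta cells make much secretory protein and depend on this response, and loss of Wfs1, Eif2ak3 or Dnajc3 causes diabetes in people and mice.

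Levels below are log2 intensities relative to the 75th percentile of all probes on the same array, and differences are on that log2 scale. Between arrays that percentile ranged from 245 to 459 intensity units, 49.2% to 58.3% of probes were well above background, and no spot was saturated. The 12 beta-cell markers and the 7 alpha-cell markers were well above background on all 24 arrays, with Ins2 at group means from 8.94 to 9.19 and Gcg from 8.97 to 9.20, which fits the islet label. Acinar markers varied widely within the chow groups: their mean level ran from -1.40 to 5.77 over the 4 BL6 chow arrays and from -3.49 to 5.08 over the 4 BLKS chow arrays. Lymphocyte markers stood high on single arrays, at 2.21 in pioglitazone mouse 3 and 1.08 in high-fat mouse 4 of BL6 and at 0.89 in high-fat mouse 3 of BLKS, where the median over all arrays was -3.57. The arrays lay on 4 slides. BL6 chow and BL6 high-fat shared the first, BLKS high-fat and BLKS pioglitazone the third, and BL6 pioglitazone and BLKS chow were spread over the other two.

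Promoter sequences are shown for members whose level differed between the strains, since a known element of this response could be read in them. The ER stress response element (ERSE) is CCAAT, any 9 bases and CCACG, on either strand, and is bound by NF-Y and by ATF6 or XBP1. A related element, ERSE-II, is ATTGG, any 1 base and CCACG. RefSeq promoter windows of 250 bases before to 50 after the start site (assembly GRCm38.p6) were matched for 34 of the 39 members. ERSE was found in 10 of the 34 (29.4%), against 0.137% of 27025 genes, and ERSE-II in 2 (5.88%, against 0.0444%), with no member holding both. The UPRE (TGACGTGG) was found in 1, Sec24d (2.94%, against 0.714%), and the CRE (TGACGTCA), which shares 6 letters with it, in 0 (against 2.03%). Capitals below mark the fixed letters of the element, with 15 flanking bases on each side.
Herpud1 (ERSE-II, 67 to 27 bases before the start, chr8:94386362-94386402, plus strand): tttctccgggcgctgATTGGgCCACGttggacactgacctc
Hspa5 (ERSE, 80 to 32 bases before, chr2:34772010-34772058, plus strand): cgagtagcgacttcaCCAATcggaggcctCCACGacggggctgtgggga
Hsp90b1 (ERSE on each strand, 227 to 74 bases before, chr10:86705518-86705671, minus strand): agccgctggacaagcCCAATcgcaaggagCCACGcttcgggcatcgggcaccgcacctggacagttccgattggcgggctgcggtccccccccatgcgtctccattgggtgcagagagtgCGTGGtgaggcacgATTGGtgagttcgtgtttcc
Syvn1 (ERSE, 59 to 11 bases before, chr19:6046517-6046565, plus strand): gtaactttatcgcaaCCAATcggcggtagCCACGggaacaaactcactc
Creld2 (ERSE on the reverse strand, 141 to 93 bases before, chr15:88819505-88819553, plus strand): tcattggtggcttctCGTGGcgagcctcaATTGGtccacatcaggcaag
Derl3 (ERSE on the reverse strand, 171 to 123 bases before, chr10:75893227-75893275, plus strand): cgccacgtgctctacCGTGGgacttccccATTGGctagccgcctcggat
Dnajc3 (ERSE, 120 to 72 bases before, chr14:118937812-118937860, plus strand): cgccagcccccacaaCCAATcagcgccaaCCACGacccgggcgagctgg
Of the 12 members with either element, 7 were higher and 1 lower in BLKS islets, by the test described next, and 4 (Calr, Canx, Ero1lb and Pdia6) did not pass. Of the 22 with neither, 8 were higher and 3 lower. Of the 5 without a promoter window, 3 were higher and 0 lower. Over all genes 29.5% were higher and 35.4% lower in that test. The members and the elements were both chosen as parts of this response, so the higher share of elements than over all genes tests nothing. The match is a description of these letters only.

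The strains differed in many members. Averaged over the 3 diets, 18 of 39 members were higher in BLKS than in BL6 islets and 4 were lower (limma, Benjamini-Hochberg adjusted p below 0.05). Herpud1, Hspa5, Derl1, Derl3 and Ero1l were higher by the most, and the cochaperones Dnajc3 and Dnajc10 lower by the most. The strains differed at most genes on the array: 64.9% of genes tested were called, 29.5% higher and 35.4% lower, so the members' 56.4% is not above that background. By direction, the members' median difference was 0.12 against -0.06 over all genes, and 28 of 39 lay above 0, where 44.8% of all genes did. In 8 members all 12 BLKS arrays lay above all 12 BL6 arrays (10.7% of genes), and in 1 they lay below (8.72%). Of the 39 members 29 had only 1 kept probe. Probe targets were not read for sequence differences between the strains. A difference in probe binding and one in RNA level therefore cannot be told apart in these values.

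**Figure D1:**
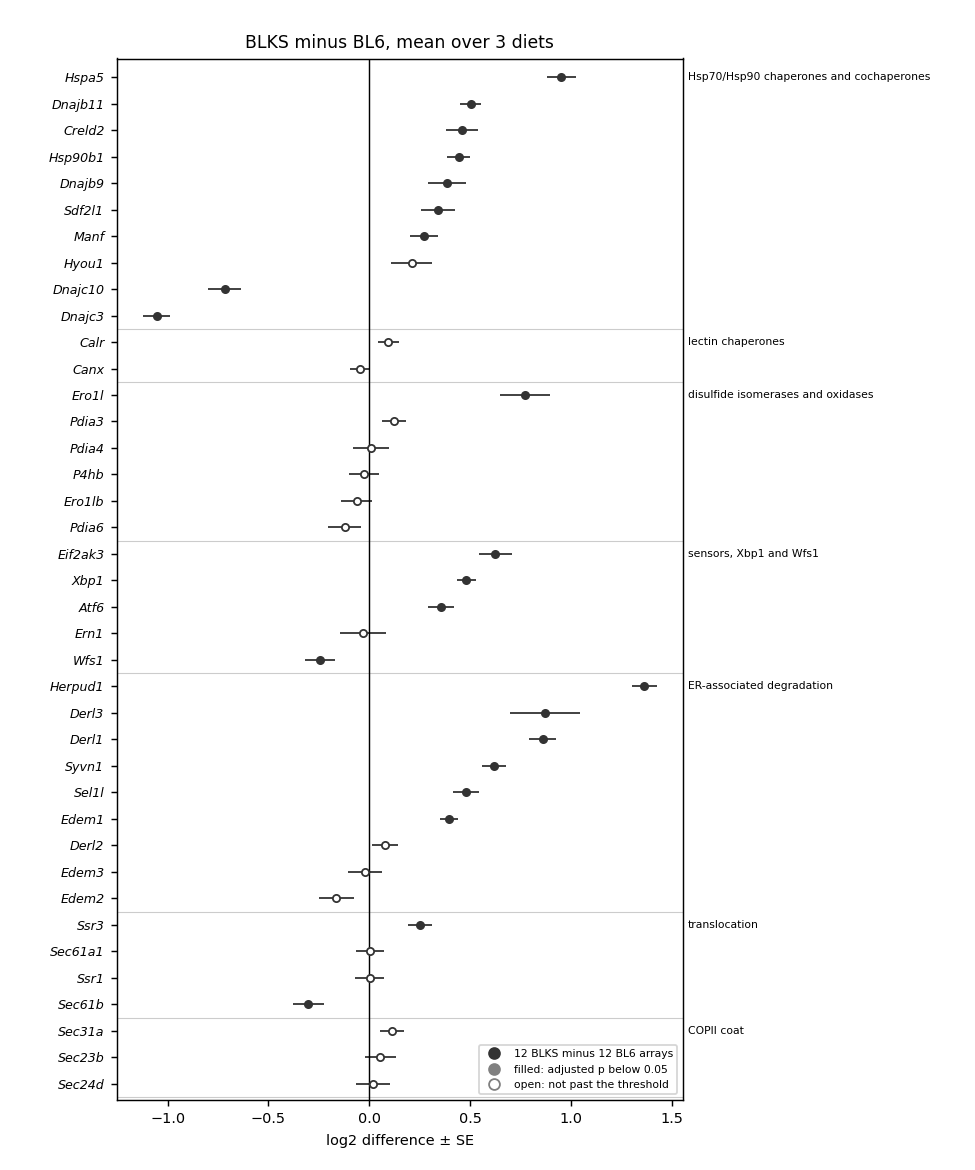
Log2 difference (x axis) between the 12 BLKS and the 12 BL6 arrays, averaged over the 3 diets, for each of the 39 members (y axis) grouped by role; bars are SE and filled points have an adjusted p below 0.05. Herpud1 lies farthest to the right at 1.36 and Dnajc3 farthest to the left at -1.05, and no lectin chaperone or COPII member is filled.

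Among the Hsp70 and Hsp90 chaperones and cochaperones, 7 of 10 were higher in BLKS islets and 2 lower (29.5% and 35.4% of all genes). Hspa5 encodes BiP, the main Hsp70 of the ER (probe at mm9 chromosome 2, 34631913 to 34631972). In BL6 mice it stood at 7.58, 7.31, 7.62 and 7.48 on chow, 7.58, 7.61, 7.46 and 7.24 on high-fat diet and 7.46, 7.22, 6.79 and 7.33 with pioglitazone. In BLKS mice it stood at 8.61, 8.41, 8.30 and 8.34, 8.53, 8.26, 8.14 and 8.22, and 8.44, 8.31, 8.24 and 8.28 in the same order. Every BLKS array lay above every BL6 array, and the lowest BL6 value belonged to pioglitazone mouse 3. The mean difference was 0.95 ± 0.07 (SE; adjusted p = 3.6e-10), which is 1.93-fold.

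Hsp90b1, the ER Hsp90 GRP94, ranged from 6.65 to 7.04 (median 6.94) in BL6 and 7.02 to 7.54 (median 7.38) in BLKS mice, a difference of 0.44 ± 0.06 (SE; adjusted p = 5.7e-07), and its ranges touched only at BLKS high-fat mouse 2. Dnajb11, a BiP cochaperone that assists substrate binding, stood at 3.96, 3.60, 3.92 and 3.83 on chow, 3.72, 3.82, 3.85 and 3.60 on high-fat diet and 3.51, 3.53, 3.45 and 3.57 with pioglitazone in BL6 mice. Its BLKS values were 4.12, 4.39, 4.12 and 4.27, 4.48, 4.11, 4.16 and 4.21, and 4.12, 4.20, 4.14 and 4.08. The strains did not overlap, with a difference of 0.50 ± 0.05 (SE; adjusted p = 4.5e-08). Creld2, a cysteine-rich stress-induced ER protein, was higher by 0.46 ± 0.08 (SE; adjusted p = 4.3e-05), Dnajb9, a BiP cochaperone that restrains IRE1, by 0.39 ± 0.09 (SE; adjusted p = 0.0013), Sdf2l1 by 0.34 ± 0.08 (SE; adjusted p = 0.0012) and the secreted stress factor Manf by 0.27 ± 0.07 (SE; adjusted p = 0.0017). The ranges of these 4 overlapped between the strains. By diet, Dnajb9 and Manf passed with pioglitazone only, and Sdf2l1 did not pass on high-fat diet alone. Hyou1, an Hsp70-like nucleotide exchange factor, differed by 0.21 ± 0.10 (SE; adjusted p = 0.075), which did not pass.

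The cochaperone Dnajc3, also called p58IPK, which is induced in ER stress and lessens PERK signalling, went the other way (probe at mm9 chromosome 14, 119378131 to 119378190). Its BL6 levels were 4.45, 4.19, 4.41 and 4.30 on chow, 4.17, 4.26, 4.37 and 3.95 on high-fat diet and 3.99, 3.91, 3.62 and 4.27 with pioglitazone. Its BLKS levels were 3.07, 3.31, 3.21 and 3.18, 3.25, 2.94, 3.22 and 2.99, and 2.94, 3.06, 3.17 and 2.90. No BLKS array reached the lowest BL6 array, and the difference was -1.05 ± 0.07 (SE; adjusted p = 3e-11). Dnajc3 was read by a single probe. Dnajc10, an ER disulfide reductase that works with BiP, stood at 2.71, 2.54, 2.77 and 2.66, 2.75, 2.77, 2.62 and 2.49, and 2.83, 2.63, 2.25 and 2.82 in BL6 mice, in the order chow, high-fat diet and pioglitazone. The BLKS values were 2.00, 1.81, 1.70 and 1.76, 2.45, 1.97, 1.82 and 1.90, and 2.08, 2.17, 1.76 and 1.81. Only BLKS high-fat mouse 1 at 2.45 lay above a BL6 array, pioglitazone mouse 3 at 2.25, and the difference was -0.72 ± 0.08 (SE; adjusted p = 1.3e-07). A second Dnajc10 probe was also lower, by -0.51.

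**Figure D2:**
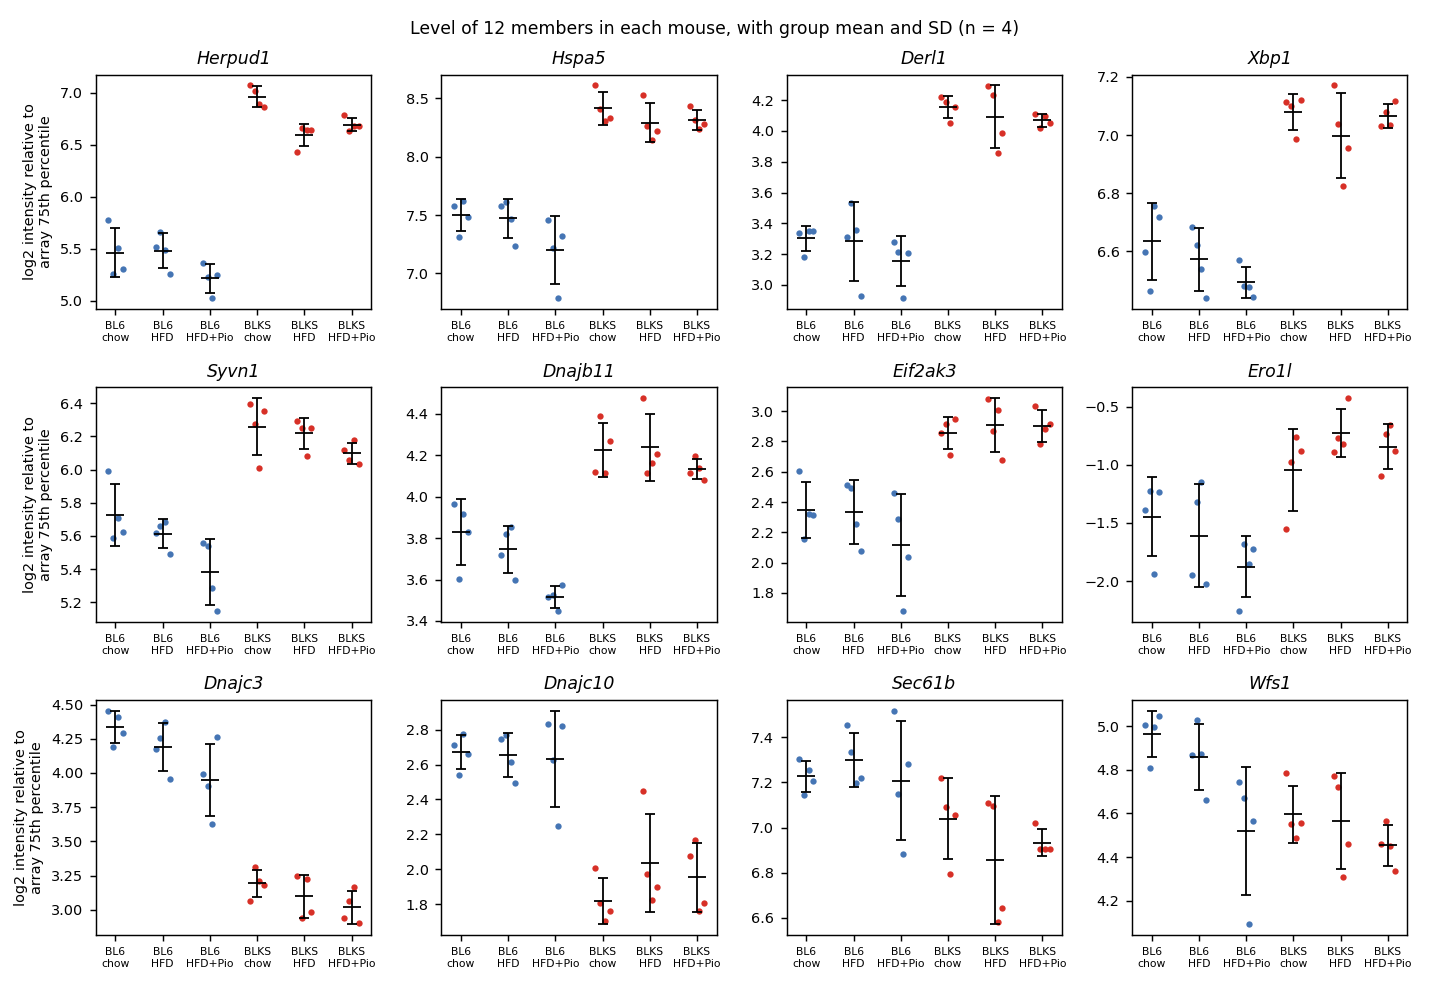
Level (y axis, log2 intensity relative to the array's 75th percentile) of 12 members in each mouse by group (x axis), with the mean and SD of the 4 mice; blue is BL6 and red is BLKS, and each panel has its own scale. Herpud1, Hspa5, Derl1, Xbp1, Syvn1, Dnajb11 and Eif2ak3 do not overlap between strains with BLKS above, Dnajc3 does not overlap with BLKS below, and the strains overlap in Ero1l, Dnajc10, Sec61b and Wfs1.

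Neither lectin chaperone passed over the diets: calreticulin (Calr) differed by 0.09 ± 0.05 (SE; adjusted p = 0.13) and calnexin (Canx) by -0.05 ± 0.05 (SE; adjusted p = 0.45). Calr passed between the strains on chow only (0.25), a call lost with quantile normalization. Of the 6 disulfide isomerases and oxidases only Ero1l, the oxidase that recharges protein disulfide isomerase, was higher in BLKS islets. It ranged from -2.26 to -1.14 (median -1.70) in BL6 and -1.55 to -0.42 (median -0.85) in BLKS mice, with overlapping values and a difference of 0.77 ± 0.12 (SE; adjusted p = 1.4e-05). Its islet-enriched paralog Ero1lb differed by -0.06 ± 0.08 (SE; adjusted p = 0.49). The isomerases Pdia3, Pdia4, Pdia6 and P4hb lay between -0.12 and 0.12, and none passed with the probe that stands for the gene.

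Of the sensors and regulators, Eif2ak3, Xbp1 and Atf6 were higher in BLKS islets, and Wfs1 was lower. Xbp1 encodes the transcription factor made after IRE1 splices its mRNA (probe at mm9 chromosome 11, 5425816 to 5425875), and its spliced form was not analysed here. BL6 mice had Xbp1 at 6.60, 6.46, 6.76 and 6.72 on chow, 6.68, 6.62, 6.54 and 6.44 on high-fat diet and 6.57, 6.48, 6.48 and 6.44 with pioglitazone. BLKS mice had it at 7.11, 7.10, 6.99 and 7.12, 7.17, 7.04, 6.82 and 6.96, and 7.03, 7.08, 7.03 and 7.12. The groups of the strains did not overlap, and the difference of 0.48 ± 0.05 (SE; adjusted p = 9.3e-09) was larger than the spread within either strain.

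Eif2ak3, which encodes the sensor kinase PERK, ranged from 1.68 to 2.60 (median 2.30) in BL6 and 2.67 to 3.08 (median 2.90) in BLKS mice without overlap, a difference of 0.62 ± 0.08 (SE; adjusted p = 1.2e-06). Atf6, the membrane-bound transcription factor that is cleaved in the Golgi, ranged from 0.29 to 1.14 (median 0.80) and 0.90 to 1.36 (median 1.15), with overlap and a difference of 0.36 ± 0.07 (SE; adjusted p = 8e-05). Wfs1 encodes wolframin, an ER membrane protein abundant in beta cells. Its BL6 levels were 5.01, 4.81, 5.00 and 5.05 on chow, 4.87, 5.03, 4.87 and 4.66 on high-fat diet and 4.75, 4.67, 4.09 and 4.57 with pioglitazone. The BLKS levels were 4.79, 4.55, 4.49 and 4.56, 4.77, 4.72, 4.31 and 4.46, and 4.46, 4.57, 4.45 and 4.34. On chow every BLKS array lay below every BL6 array, while on the high-fat diets the strains overlapped, and the mean difference was -0.24 ± 0.07 (SE; adjusted p = 0.0068). This call ended with the authors' deposited value table (adjusted p = 0.081). On the slides shared by both strains the sign turned (0.08), but there BLKS mice on chow were set against BL6 mice on pioglitazone. Among 12 beta-cell markers 8 were also lower in BLKS islets and none higher, where 35.4% of all genes were lower and 29.5% higher. Mean beta-cell marker levels were 4.98 to 5.42 in BLKS and 5.21 to 5.83 in BL6 mice. The part of these markers in the Wfs1 difference was not tested.

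Ern1, which encodes the sensor IRE1, gave different answers by probe. The brightest of its 4 probes (mm9 chromosome 11, 106258948 to 106259007, minus strand) ranged from 1.52 to 2.55 (median 1.90) in BL6 and 1.45 to 2.41 (median 1.83) in BLKS mice, and did not differ beyond that spread (-0.03 ± 0.11 (SE; adjusted p = 0.83)). A dimmer probe at 106275124 to 106275183, well above background on all 24 arrays, lay from -2.70 to -1.88 in BL6 and from -1.32 to -0.85 in BLKS mice. The strains did not overlap on it, with a difference of 1.10 ± 0.09 (SE; adjusted p = 8.4e-10), and 0.98, 0.96 and 1.35 on chow, high-fat diet and pioglitazone. The probe at 106296065 to 106296124 was well above background on 0 of 12 BL6 and 11 of 12 BLKS arrays. It was kept only through its BLKS arrays, so no test is given. Against the floor of the BL6 arrays, the BLKS mean was at least 1.67-fold higher. The last probe, at 106319898 to 106319957, was well above background on 3 BL6 and 10 BLKS arrays, so most of its BL6 values lie below background and no difference is given. The file pairs the brightest probe with a RefSeq transcript and the other 3 with Ensembl transcripts, and whether they read different transcripts was not tested.

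**Figure D3:**
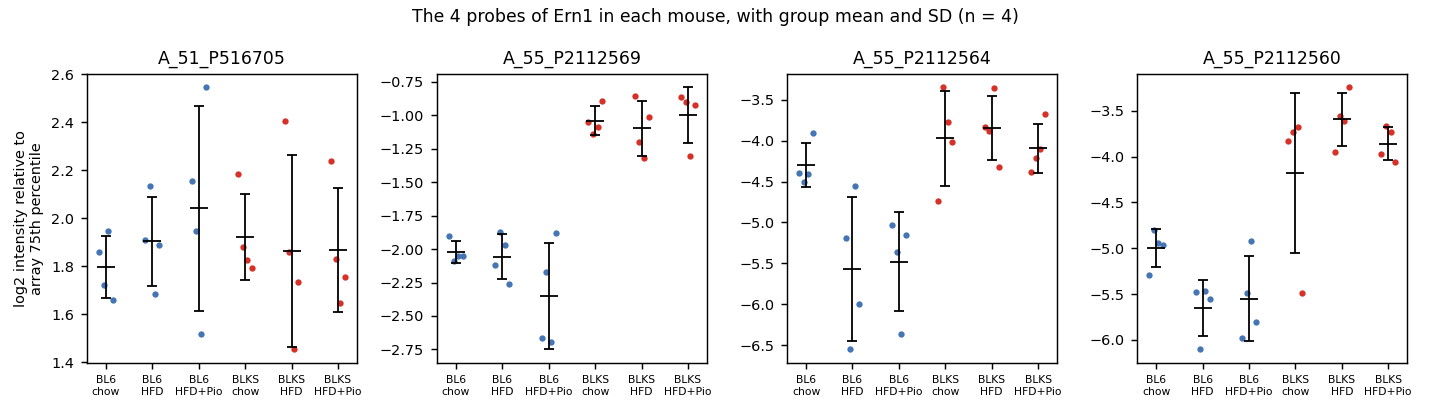
Level (y axis, log2 intensity relative to the array's 75th percentile) of each of the 4 Ern1 probes in each mouse by group (x axis), with the mean and SD of the 4 mice; blue is BL6 and red is BLKS, and each panel has its own scale. The strains overlap on the brightest probe at left and are apart on the next, with BL6 from -2.70 to -1.88 and BLKS from -1.32 to -0.85.

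ER-associated degradation, which returns misfolded proteins to the cytosol for the proteasome, held 6 higher and 0 lower of 9 members. Over all genes 29.5% were higher and 35.4% lower. Herpud1, an ER membrane protein of the degradation complex that is strongly stress-induced, gave the largest difference of any member (probe at mm9 chromosome 8, 96919117 to 96919176). It stood at 5.78, 5.26, 5.50 and 5.31 on chow, 5.52, 5.66, 5.49 and 5.25 on high-fat diet and 5.36, 5.22, 5.03 and 5.25 with pioglitazone in BL6 mice. In BLKS mice the levels were 7.07, 7.02, 6.89 and 6.86, 6.43, 6.66, 6.64 and 6.64, and 6.78, 6.63, 6.68 and 6.68. The lowest BLKS array lay above the highest BL6 array by more than the range within any group, and the difference was 1.36 ± 0.06 (SE; adjusted p = 9.3e-14), 2.57-fold.

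Syvn1 encodes the ubiquitin ligase HRD1 (probe at mm9 chromosome 19, 6053583 to 6053642). The BL6 values were 5.99, 5.58, 5.71 and 5.62, 5.62, 5.66, 5.69 and 5.49, and 5.56, 5.54, 5.29 and 5.15 for chow, high-fat diet and pioglitazone. The BLKS values were 6.39, 6.27, 6.01 and 6.35, 6.29, 6.25, 6.08 and 6.25, and 6.12, 6.06, 6.18 and 6.04. These did not overlap, by a narrow margin, and differed by 0.62 ± 0.06 (SE; adjusted p = 1.8e-08). Its adaptor Sel1l ranged from 1.73 to 2.22 (median 2.03) in BL6 and 2.24 to 2.80 (median 2.51) in BLKS mice, also without overlap (0.48 ± 0.06 (SE; adjusted p = 1.6e-06)).

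Derl1, a channel component of the degradation complex, had 2 probes, both higher in BLKS islets, by 0.86 and 0.44 (mm9 chromosome 15, 57701488 to 57701547 and 57703097 to 57703156, minus strand). On the first, BL6 mice stood at 3.33, 3.18, 3.35 and 3.35, 3.31, 3.53, 3.36 and 2.93, and 3.28, 3.21, 2.91 and 3.21, again for chow, high-fat diet and pioglitazone. BLKS mice stood at 4.22, 4.19, 4.05 and 4.15, 4.29, 4.23, 3.86 and 3.99, and 4.11, 4.02, 4.10 and 4.05. No values were shared between the strains (0.86 ± 0.07 (SE; adjusted p = 3.6e-10)). Its paralog Derl3 was higher by 0.87 ± 0.17 (SE; adjusted p = 0.00017), but ranged from 2.02 to 3.47 (median 2.68) in BL6 and 2.26 to 4.09 (median 3.75) in BLKS mice, with BLKS high-fat mouse 1 as low as the BL6 arrays. Derl2 differed by 0.08 ± 0.06 (SE; adjusted p = 0.3). Of the mannosidase-like proteins that mark glycoproteins for degradation, Edem1 was higher, at 2.30, 2.25, 2.21 and 2.29 in BLKS against 1.91, 1.76, 1.86 and 1.78 in BL6 mice on chow, without overlap. Over the diets its difference was 0.39 ± 0.04 (SE; adjusted p = 1.5e-07), while Edem2 (-0.16 ± 0.09 (SE; adjusted p = 0.1)) and Edem3 (-0.02 ± 0.08 (SE; adjusted p = 0.84)) did not pass.

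Translocation and COPII members differed little. Ssr3, a subunit of the translocon-associated complex, was higher by 0.25 ± 0.06 (SE; adjusted p = 0.00087), and Sec61b, a subunit of the translocation channel, was lower. Sec61b stood at 7.31, 7.14, 7.25 and 7.21 on chow, 7.45, 7.33, 7.20 and 7.22 on high-fat diet and 7.52, 7.15, 6.89 and 7.28 with pioglitazone in BL6 mice. The BLKS values were 7.22, 7.09, 6.79 and 7.05, 7.11, 7.10, 6.58 and 6.64, and 7.02, 6.91, 6.90 and 6.91. The strains overlapped, with every BLKS array on high-fat diet alone below every BL6 array on it, and the difference was -0.30 ± 0.08 (SE; adjusted p = 0.0015), with 2 of its 3 probes called. Sec61a1 (0.00 ± 0.07 (SE; adjusted p = 0.97)) and Ssr1 (0.00 ± 0.07 (SE; adjusted p = 0.98)) did not pass, although 1 of 3 Ssr1 probes was lower, by -0.52. Over the diets the coat subunits Sec23b, Sec24d and Sec31a differed by 0.06, 0.02 and 0.11, none past the threshold. Sec31a passed between the strains with pioglitazone only (0.28), a call lost with quantile normalization. Of the 10 members with several probes, the probes were all higher in 2 (Derl1 and Dnajb9), all lower in 1 (Dnajc10), uncalled in 2 (Derl2 and Sec31a) and mixed in 5 (Ern1, Pdia6, Sec61b, Ssr1 and Ssr3).

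Strain differences were also called within each diet. On chow 15 members were higher and 3 lower, 46.2% of members against 41.6% of genes (19.6% higher and 22% lower). On high-fat diet 12 were higher and 3 lower, where 50.1% of genes were called (22.8% and 27.3%). With pioglitazone 19 were higher and 2 lower, where 45.8% of genes were called (23% and 22.8%). In all 3 diets 11 members were higher (28.2%, against 15.5% of genes): Hspa5, Hsp90b1, Dnajb11, Creld2, Eif2ak3, Xbp1, Herpud1, Edem1, Sel1l, Syvn1 and Derl1. Of these, Creld2 lost its chow call with normexp correction before quantile normalization and without BL6 chow mouse 2 or BLKS chow mouse 1 and its high-fat call without mouse 1 of either strain on that diet. Hsp90b1 and Edem1 lost their high-fat call with only the compared groups in the fit. Without the 8 arrays whose mean lymphocyte marker level lay above the mean of all arrays, Creld2 lost its call in all 3 diets, Dnajb11 and Eif2ak3 on chow and Sel1l with pioglitazone. Of the other members higher over the diets, Dnajb9, Manf and Ssr3 passed with pioglitazone only. Sdf2l1, Derl3 and Atf6 did not pass on high-fat diet alone, and Ero1l did not pass on chow. Dnajc3 and Dnajc10 were lower in all 3 diets (5.13%, against 15.5% of genes). Herpud1 was higher by 1.50 ± 0.11 on chow (SE; adjusted p = 6.4e-10), 1.11 ± 0.11 on high-fat diet (adjusted p = 4.3e-08) and 1.48 ± 0.11 with pioglitazone (adjusted p = 8.2e-10). Hspa5 was higher by 0.92, 0.82 and 1.12, and Dnajc3 differed by -1.14, -1.09 and -0.93, in the same order. Wfs1 passed on chow only (-0.37 ± 0.13 (SE; adjusted p = 0.025)), a call lost in 6 of the 8 fits that left out a mouse (adjusted p from 0.055 to 0.07).

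Only BL6 pioglitazone and BLKS chow mice shared slides, so a strain difference free of slide could be had only across a difference of diet. Between those 8 arrays, with slide as a term, 21 members were called, against 32.7% of genes. Of the 22 members called over all arrays, 20 were also called there and 21 had the same sign, Wfs1 being the exception. The BL6 arrays of this comparison were on pioglitazone, where nearly all members lay lower than on high-fat diet alone, as given below. How far this raised the differences here was not tested. Herpud1 stood at 1.75 ± 0.11 (SE; adjusted p = 1e-04), Hspa5 at 1.22, Derl1 at 1.00 and Dnajc3 at -0.76, and Sec61b (-0.17, adjusted p = 0.47) did not pass. Markers of other cells also differed between the strains. Of 7 duct markers 5 were higher in BLKS islets and 0 lower, and their mean level ran from -1.23 to -0.31 in BLKS and from -3.20 to -1.59 in BL6 mice, with Sox9 well above background on only 13 arrays. Of 12 macrophage markers 9 were lower and 1 higher, and of 7 alpha-cell markers 5 were lower and 1 higher. Over all genes 35.4% were lower and 29.5% higher. The mean macrophage level was -0.06 in BL6 and 0.02 in BLKS mice on chow. It was 0.50 and 0.00 on high-fat diet and 0.81 and 0.06 with pioglitazone. The part of these cells in the members' differences was not tested.

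In the rest of the pathway, 110 genes in 6 lists that hold no member, 37 of the 108 measured were higher and 36 lower, with a median of -0.04. Over all genes tested 29.5% were higher and 35.4% lower, so these counts lie near that background. In the list of the PERK arm and its stress outputs 11 of 13 were higher in BLKS islets and 1 lower, with a median of 0.96. The lists were chosen with earlier results of these data known, so this count tests nothing. Ppp1r15a, the GADD34 subunit that reverses PERK's block on translation, was higher by 3.39 ± 0.06 (SE; adjusted p = 6.6e-20), 10.5-fold, at 2.65 to 3.41 in BL6 and 6.17 to 6.69 in BLKS mice. Cebpb, a transcription factor of stress and inflammation, was higher by 2.93 ± 0.08 (7.61-fold; adjusted p = 2.3e-17). Trib3, a pseudokinase induced by ATF4 and CHOP, was higher by 2.54 ± 0.11 (5.82-fold; adjusted p = 2.2e-14). None of these 3 overlapped between strains, and Atf5, named after its value was seen, was the lower one at -0.23. Within the shared slides 9 of the 13 were called higher and 0 lower, where 32.7% of genes were called in either direction. The other lists were divided. Degradation factors had 7 higher and 6 lower of 17 (Ube2j2 at 1.11 and Erlec1 at -1.02), folding factors 3 and 11 of 19 (Fkbp7 at 0.70 and Pdia5 at -1.13), and translocation and glycosylation factors 5 and 10 of 26 (Sec61a2 at 0.45 and Ssr2 at -0.74). Transport from ER to Golgi had 7 higher and 2 lower of 18 (Sec24a at 0.47), and other ER stress regulators 4 and 6 of 15 (Creb3 at 0.73).

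Between high-fat diet and chow no member passed the threshold in either strain. In BL6 islets, whose groups share a slide, 0 of 39 members were called (0.0435% of genes were), 0 had an unadjusted p under 0.05 (5.41% of genes did), 26 lay below 0 (51.8% of genes), and the members' median was -0.02 against -0.01 over all genes. The smallest p in each role belonged to Sec24d (-0.22 ± 0.14, SE), Dnajc3 (-0.15 ± 0.12), Ero1lb (0.16 ± 0.13), Syvn1 (-0.11 ± 0.11), Ssr3 (-0.10 ± 0.10), Wfs1 (-0.11 ± 0.13) and Calr (0.04 ± 0.09), each with an adjusted p of 0.97 or 0.98. Hspa5, Hsp90b1, Xbp1, Atf6, Ern1 and Eif2ak3 differed by -0.02, -0.00, -0.06, -0.06, 0.11 and -0.01. For Sec24d the chow mice stood at 2.60, 2.33, 2.49 and 2.61 and the high-fat mice at 2.25, 2.54, 2.49 and 1.88, and the groups overlapped.

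In BLKS islets 31 of 39 members lay below 0 on high-fat diet (53.3% of all genes did), with a median of -0.09 against -0.02, and again 0 were called (0.074% of genes). Herpud1 had all high-fat values below all chow values: the chow mice stood at 7.07, 7.02, 6.89 and 6.86 and the high-fat mice at 6.43, 6.66, 6.64 and 6.64. The difference was -0.37 ± 0.11 (SE; adjusted p = 0.22). Sdf2l1, a stress-induced BiP partner, stood at 4.52, 4.44, 4.26 and 4.31 on chow and 3.56, 4.21, 4.03 and 4.24 on high-fat diet, also without overlap (-0.37 ± 0.14 (SE; adjusted p = 0.4)). These were the only members whose groups did not overlap, 2 of 39 where 3.48% of genes did not in this direction. Calr was the third member with an unadjusted p under 0.05 (-0.22 ± 0.09 (SE; adjusted p = 0.46)), at 5.27, 5.23, 5.12 and 5.04 on chow and 4.86, 4.85, 4.98 and 5.08 on high-fat diet with overlap, and 9.1% of genes had such a p. Without each mouse in turn 1 to 5 members had one.

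Smallest p in the other roles belonged to Atf6 (-0.17 ± 0.11, SE), Ero1l (0.32 ± 0.21), Sec61b (-0.18 ± 0.13) and Sec31a (0.10 ± 0.10). Hspa5 stood at -0.13, Hsp90b1 at -0.15, Xbp1 at -0.08, Eif2ak3 at 0.05, Ern1 at -0.06 and Wfs1 at -0.03. Of the rest of the pathway 72 of 108 lay below 0 and 0 were called, with Ddit3, which encodes the stress factor CHOP, at -0.49. BLKS chow and BLKS high-fat arrays lay on different slides, so diet and slide cannot be told apart here. The acinar marker list moved with this contrast, 24 of 25 markers above 0 with a median of 2.67 and none called, and within groups 0 members had a slope on the acinar level past the threshold (0.366% of genes did). The test of the strain difference in high-fat response called 0 members and 0 genes, and 2 members (Herpud1 and Derl3) and 8.22% of genes had an unadjusted p under 0.05. Herpud1 was at -0.39 ± 0.15 (SE; adjusted p = 0.47) and Derl3 at -0.90 ± 0.42 (SE; adjusted p = 0.59). Averaged over the strains, 0 members passed between high-fat diet and chow (0.0348% of genes).

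Pioglitazone added to the high-fat diet went with lower values of nearly all members in BL6 islets, none of them past the threshold. Of 39 members 38 lay below 0, where 52.2% of all genes did, and the median was -0.24 against -0.01. None was called (0.17% of genes were), 18 had an unadjusted p under 0.05 and a lower value (6.19% of genes), and Ern1 alone lay above 0, at 0.14. The COPII subunit Sec23b had the smallest p: the high-fat mice stood at 4.91, 5.15, 5.04 and 4.60 and the pioglitazone mice at 4.62, 4.68, 4.13 and 4.38. High-fat mouse 4 overlapped with the pioglitazone mice, and the difference was -0.47 ± 0.13 (SE; adjusted p = 0.19). Dnajb9 stood at 5.02, 5.35, 5.03 and 4.64 without and 4.74, 4.78, 3.99 and 4.47 with the drug, where pioglitazone mouse 3 was lowest (-0.51 ± 0.16 (SE; adjusted p = 0.26)).

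Edem2 stood at 0.64, 1.21, 1.12 and 0.62 without and 0.29, 0.68, 0.41 and 0.48 with pioglitazone (-0.43 ± 0.15 (SE; adjusted p = 0.3)). Atf6 stood at 0.89, 1.14, 0.84 and 0.59 and 0.44, 0.78, 0.29 and 0.66 (-0.32 ± 0.11 (SE; adjusted p = 0.31)), and Ssr3 at 4.99, 4.95, 5.11 and 4.76 and 4.79, 4.67, 4.35 and 4.85 (-0.29 ± 0.10 (SE; adjusted p = 0.31)). P4hb, the first-named protein disulfide isomerase, stood at 5.50, 6.07, 5.87 and 5.41 and 5.34, 5.35, 5.04 and 5.67 (-0.37 ± 0.13 (SE; adjusted p = 0.31)). In each of these 4 the groups overlapped. Only Dnajb11 did not overlap, at 3.72, 3.82, 3.85 and 3.60 and 3.51, 3.53, 3.45 and 3.57 (-0.23 ± 0.09 (SE; adjusted p = 0.37)), where 1.75% of genes did not in this direction. Calr had the smallest p of its role at -0.10 ± 0.09. Hspa5 stood at -0.27, Hsp90b1 at -0.16, Eif2ak3 at -0.22, Xbp1 at -0.08 and Wfs1 at -0.34.

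**Figure D4:**
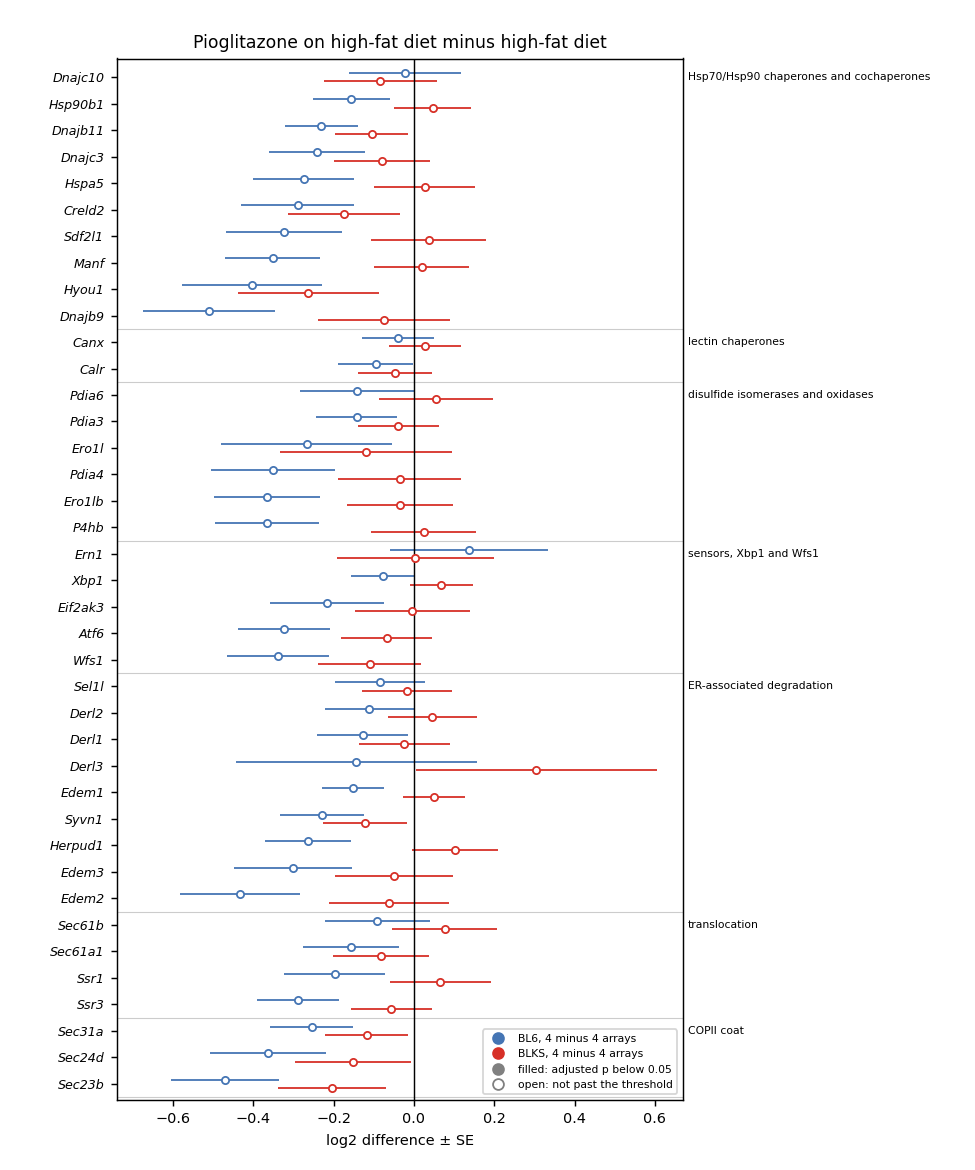
Log2 difference (x axis) between high-fat diet with and without pioglitazone for each of the 39 members (y axis) grouped by role, in BL6 (blue) and BLKS (red) islets, 4 arrays against 4; bars are SE and open points did not pass. In BL6 38 of 39 points lie left of 0 and in BLKS 24, and all points are open.

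BL6 pioglitazone and BL6 high-fat arrays lay on different slides, so the drug and the slide cannot be told apart. The BL6 values also depended on single mice. The median level of the 39 members was 4.09 in pioglitazone mouse 3, 4.42 to 4.69 in the other pioglitazone mice, and 4.60 to 4.93 in the high-fat mice. With only the arrays of these groups in the fit, the 18 members with an unadjusted p under 0.05 became 5. They became 7 without pioglitazone mouse 3, 5 without high-fat mouse 2 and 10 without high-fat mouse 3, and the median stayed between -0.31 and -0.20 over the mice left out. Lymphocyte markers moved with this contrast: 20 of 21 lay above 0 with a median of 0.86 and none called, and their mean level ran from -4.02 to 2.21 with and from -4.04 to 1.08 without the drug. Among the lymphocyte markers Blk was well above background on 6 arrays and Cd3g on 7. Several other marker lists also lay higher, with no marker called. Macrophage markers lay above 0 in 10 of 12 (median 0.32), with a mean level of 1.71 in pioglitazone mouse 3. Plasma cell markers lay above 0 in 5 of 5 (median 0.97) and alpha-cell markers in 6 of 7 (median 0.52). The 3 delta-cell markers all lay above 0, with a mean level of 5.27 to 5.76 with and 4.90 to 5.27 without the drug. The mean beta-cell level lay lower, at 5.51 with and 5.63 without the drug, and was lowest at 5.21 in pioglitazone mouse 3. The mean endothelial level (1.83 with and 1.97 without) and PP-cell level (8.49 and 8.86) also lay lower. The part of these lists was not tested. Without the 8 arrays of high lymphocyte level, the members' median was -0.20, 33 of 39 lay below 0 and 9 had an unadjusted p under 0.05 and a lower value. With that level as a covariate there were 17, and the median was -0.22. Of the rest of the pathway 92 of 108 lay below 0, where 52.2% of all genes did (median -0.18, 0 called), with the retrieval receptor Kdelr3 at -0.60.

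In BLKS islets, where both groups lay on 1 slide, no member passed between pioglitazone and high-fat diet alone. None was called (0.00435% of genes were), 0 had an unadjusted p under 0.05 (4.14% of genes did), 24 of 39 lay below 0 (47.2% of genes) and the median was -0.04 against 0.01. Hyou1 had the smallest p, at 0.93, 1.04, 0.92 and 1.46 without and 0.80, 0.92, 1.16 and 0.43 with the drug, with overlap (-0.26 ± 0.18 (SE; adjusted p = 1)). Sec23b stood at -0.20 ± 0.13 (SE), Syvn1 at -0.12 ± 0.11, Xbp1 at 0.07 ± 0.08, Sec61a1 at -0.08 ± 0.12, Ero1l at -0.12 ± 0.21 and Calr at -0.05 ± 0.09, each with an adjusted p of 1. Hspa5, Hsp90b1, Atf6, Ern1, Eif2ak3 and Wfs1 differed by 0.03, 0.05, -0.07, 0.00, -0.00 and -0.11. The response was not shown to differ between the strains: the test of the difference called 0 members (0.0131% of genes), although 37 of 39 lay above 0 (53.1% of genes), with a median of 0.20 against 0.02. Herpud1 had the smallest p (0.37 ± 0.15 (SE; adjusted p = 0.57)), and 3 members had an unadjusted p under 0.05, where 7.57% of genes did. Averaged over the strains, 0 members passed between pioglitazone and high-fat diet alone (0.0218% of genes).

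Within groups of mice, some members were lower on arrays with more lymphocyte signal, a result that turned on single arrays. Per unit of the mean log2 level of 21 lymphocyte markers, 13 of 39 members fell past the threshold and 0 rose (33.3%, against 24.7% of all genes called and 17.3% lower). Sec61a1, the channel-forming subunit of the translocon, had the smallest p, with a slope of -0.06 ± 0.01 (SE; adjusted p = 0.0082). It stood at 5.87, 5.83, 5.36 and 5.87 in BL6 pioglitazone mice and 6.07, 6.04, 5.60 and 5.80 in BLKS high-fat mice, the lowest of each being mouse 3, which had the highest lymphocyte level of its group. Ero1lb, Wfs1, P4hb, Ssr3, Derl1, Canx, Sec23b, Sec31a, Dnajb9, Atf6, Hspa5 and Pdia6 were the others, with adjusted p from 0.013 to 0.049. Derl3 had a slope of 0.11 ± 0.04 (SE; adjusted p = 0.057). These calls rest on few arrays: without BL6 pioglitazone mouse 3 there were 0, without BL6 high-fat mouse 4 there were 2, and without BLKS high-fat mouse 3 there were 4. With the mouse number as a replicate block there were 3.

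**Figure D5:**
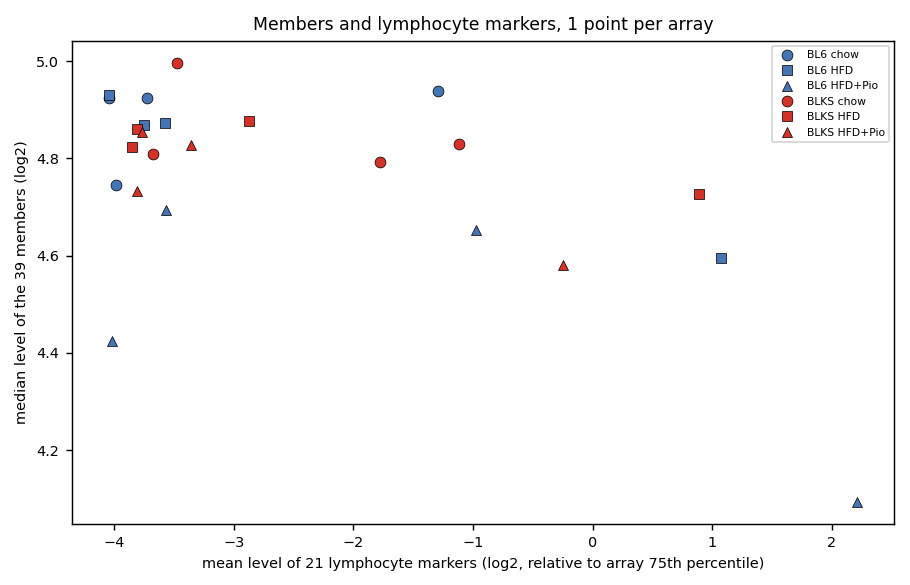
Median level of the 39 members (y axis, log2) against the mean level of 21 lymphocyte markers (x axis, log2, both relative to the array's 75th percentile), 1 point per array, with colour for strain and shape for diet. The array at lower right is BL6 pioglitazone mouse 3, at 2.21 and 4.09, and most arrays lie at the left between 4.6 and 5.0.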

How the data were processed

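RNA of 24 islet samples was hybridised to single-colour Agilent arrays, 1 per mouse. Per the file headers, Agilent Feature Extraction 10.7.3.1 gave the deposited background-subtracted, detrended intensity of each spot, not normalized between arrays, and probe coordinates are on mm9. The authors' deposited value table holds a linear ratio, each array's processed intensity over its median, and served as an alternative. Its columns without a sample numbered 0.

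The log2 processed intensity, averaged over spots without outlier flags, was set relative to each array's 75th percentile. Probes well above background on at least 4 arrays were kept (32750 of 55681), and the brightest kept probe stood for a gene. Using limma 3.58.1 (R 4.3.3, with the package data.table at version 1.17.8), 6 group means were fitted over all arrays, and p-values were adjusted over 22968 genes by Benjamini-Hochberg at 0.05. All adjusted p-values come from limma fits. Slopes on marker levels added the level as a covariate. The fit was tested on simulated data. The members, gene lists and promoter elements were chosen with earlier results of these data known, and the alternatives that left out arrays of high lymphocyte level or kept to shared slides were added after seeing the data. For a probe below background throughout 1 group, a least fold was computed. It sets the brighter mean against the dim arrays' floor, per array the larger of its dimmest well-detected probe and the measured value.

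Genes named were those past the threshold in a contrast (up to 6 per direction), the smallest p of each role in the strain-wise diet and drug contrasts, and Hspa5, Hsp90b1, Xbp1, Atf6, Ern1, Eif2ak3 and Wfs1; up to 3 genes came from each further pathway list. Each mouse is a separate animal. Mouse numbers recur in each group, but same-numbered mice did not deviate together (11 of 28 pairs correlated above 0.1, from -0.644 to 0.485), so no pairing was used.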

Additional observations from a re-analysis of the deposited data

Results flagged for a closer look

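Of 234 sets of 4 mice (39 members in 6 groups), 12 held a mouse far from the other 3 by Dixon's test, and chance gives about 1 in 20 sets. In BL6 chow mouse 2 the low values were Dnajb9 at 4.75, Derl1 at 3.18 and Sec61a1 at 5.81. In BL6 pioglitazone mouse 3 Sec61a1 was low at 5.36. BL6 high-fat mouse 1 was low in Pdia4 at 2.42. BLKS chow mouse 3 was low in Xbp1 at 6.99 and BLKS chow mouse 1 high in Sec23b at 5.13. BLKS high-fat mouse 1 was low in Herpud1 at 6.43. Among BLKS pioglitazone mice, mouse 1 was high in Sec61b at 7.02 and low in Sec31a at 4.58, mouse 3 was high in Edem3 at 1.64 and mouse 4 was low in Dnajb9 at 5.15.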

How the results depend on the processing

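Counts of members called between the strains held under the 13 other settings: 21 to 25 over the diets (22 to 24 with a mouse left out), 14 to 20 on chow, 13 to 18 on high-fat diet and 19 to 22 with pioglitazone. Over the diets 20 to 22 of the 22 calls were kept, on chow 12 to 18 of 18, on high-fat diet 13 to 15 of 15 and with pioglitazone 16 to 21 of 21. The lowest on chow and with pioglitazone came without the arrays of high lymphocyte level, where fewer arrays were fitted and chow lost Calr, Creld2, Dnajb11, Eif2ak3, Sdf2l1 and Wfs1. The diet and drug contrasts called 0 members under every setting run. The count of slopes on lymphocyte level did move: 13 became 7 with quantile normalization, 22 with the authors' value table, 20 with probes well above background on all 24 arrays and 3 with the mouse number as a replicate block, and ran from 0 to 17 with a mouse left out. The replicate block gave 23 members over the diets and 17 on chow (Calr was lost), and changed no other count by over 1.5 times. Calr turned sign in BL6 on high-fat diet (-0.021 with quantile normalization, -0.016 with normexp correction before it, and from -0.016 to 0.061 with a mouse left out), in BL6 with pioglitazone (0.047 without the arrays of high lymphocyte level) and in BLKS with pioglitazone (from -0.11 to 0.0066 with a mouse left out). Wfs1 turned to 0.076 within the shared slides, where BLKS chow was set against BL6 pioglitazone. The causes were not tested. Of 900 values of named members under other settings, 883 kept side and direction. With 4 mice a group the precision is limited.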
